A study of Mus musculus with 12 samples.

Results

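The genes *Gpr155*, *Fam214a*, *Sesn1*, *Sesn2*, *Sesn3*, *Foxo1*, *Foxo3*, *Pik3ip1*, *Tsc22d3* and *Irs2* encode regulators of the nutrient-sensing mTORC1 pathway, of PI3K-AKT signaling and of FoxO-dependent transcription, together with 1 protein of little known function. They are 10 of the 53379 genes in the count table, and all 10 were among the 12386 genes that passed the filter on low counts. *Gpr155* and *Fam214a* were chosen by their counts in these same libraries, which fell late after fenoterol, so their values are a description and carry no test. The other 8 were added as sestrins, FoxO factors and neighbors of the PI3K pathway, with results of these data known.

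RNA was measured by sequencing in bone marrow-derived macrophages (BMDMs) from 4 male mice of the C57Bl/6J strain, aged 8 to 20 weeks. The labels name no genetic modification. Marrow of the femur and tibia was grown for 1 week in RPMI with serum and L929-conditioned medium, a source of the macrophage growth factor CSF1. The macrophages were plated, left overnight, and either left untreated or given 1 μM fenoterol, an agonist of β2-adrenergic receptors, for 1 h or 4 h in the same medium. Each mouse gave 1 culture per group, so the 3 groups hold 4 libraries each, and replicate numbers below name the mouse. The labels give 1 untreated group, which serves both times, so time of harvest and time with fenoterol cannot be told apart. The methods of the study describe a check of such cultures for macrophage surface markers.

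mTORC1 is a kinase complex on the lysosome that promotes growth when amino acids, cholesterol and insulin are plentiful. GPR155, also called LYCHOS, is a lysosomal membrane protein that senses cholesterol and acts on GATOR1, an inhibitor of mTORC1, while sestrins bind GATOR2 and restrain mTORC1 when leucine is scarce. Insulin receptors act through the adaptor IRS2 and PI3K to activate AKT, which keeps FOXO1 and FOXO3 out of the nucleus. Sestrin genes are in turn known targets of FoxO factors, p53 and ATF4, and TSC22D3, better known as GILZ, is a leucine zipper protein induced by glucocorticoids.

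Libraries held 14580533 to 24153284 counts, and the 6 macrophage markers *Adgre1*, *Itgam*, *Cd68*, *Lyz2*, *Fcgr1* and *Mertk* were high in all 12. Their summed normalized counts ranged from 627000 to 655000 without treatment, from 559000 to 653000 after 1 h and from 529000 to 599000 after 4 h, so every 4 h library lay below every untreated one. The sum mostly follows *Lyz2*, which had 356901 to 594475 counts per library. *Adgre1* had 68135 to 104150, and each of the others had at most 47768. The part of this lower sum in the results below was not tested. Erythroid markers were at 0, and those of B cells, T cells and mast cells or basophils had at most 11 counts each in any library. The summed normalized counts of neutrophil markers ranged from 591 to 1210 without treatment, from 625 to 1110 after 1 h and from 590 to 1010 after 4 h. For fibroblast markers these ranges were 378 to 1190, 586 to 1050 and 415 to 1100, so the ranges of both lists overlapped between groups. Values below are normalized counts, which are counts scaled by the TMM method to the mean library. Fold changes are log2 values with their standard errors (SE), and adjusted p-values are from edgeR's quasi-likelihood test over all 12386 genes. An adjusted p under 0.05 is called past the threshold.

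The promoters of *Gpr155*, *Fam214a* and *Sesn1* are shown first because these 3 genes were the furthest below their untreated level at 4 h. The windows run from 250 bases before to 50 bases after a RefSeq transcript start (GRCm38.p6) and are read 5′ to 3′ on the strand of the gene. Capitals mark TGACG, the short form of the cAMP response element (CRE) to which CREB binds, or TGTTTAC, a site bound by FoxO factors. *Fam214a* has a second window that overlaps the one shown and holds the same short CRE, and another, at chr9:74975861-74976160, that holds none of the motifs searched.
Gpr155, chr2:73386431-73386730, minus strand: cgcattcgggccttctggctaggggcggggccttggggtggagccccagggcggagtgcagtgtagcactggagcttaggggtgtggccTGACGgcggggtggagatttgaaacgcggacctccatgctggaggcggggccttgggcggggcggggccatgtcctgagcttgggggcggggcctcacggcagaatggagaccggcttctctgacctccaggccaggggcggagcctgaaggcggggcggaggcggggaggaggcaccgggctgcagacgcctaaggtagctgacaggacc
Fam214a, chr9:74952803-74953102, plus strand: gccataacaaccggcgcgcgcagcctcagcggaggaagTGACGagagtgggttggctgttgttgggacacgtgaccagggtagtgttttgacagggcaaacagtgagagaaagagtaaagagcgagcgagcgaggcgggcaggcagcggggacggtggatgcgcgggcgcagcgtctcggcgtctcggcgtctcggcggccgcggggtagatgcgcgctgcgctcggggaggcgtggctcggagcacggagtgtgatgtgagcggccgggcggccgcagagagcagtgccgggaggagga
Sesn1, chr10:41810324-41810623, plus strand: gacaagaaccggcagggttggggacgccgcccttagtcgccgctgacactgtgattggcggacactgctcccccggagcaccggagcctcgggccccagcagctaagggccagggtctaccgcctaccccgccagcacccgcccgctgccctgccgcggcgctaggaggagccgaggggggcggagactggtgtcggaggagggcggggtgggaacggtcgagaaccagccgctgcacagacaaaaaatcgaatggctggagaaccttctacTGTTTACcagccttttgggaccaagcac
Sesn1, chr10:41887189-41887488, plus strand: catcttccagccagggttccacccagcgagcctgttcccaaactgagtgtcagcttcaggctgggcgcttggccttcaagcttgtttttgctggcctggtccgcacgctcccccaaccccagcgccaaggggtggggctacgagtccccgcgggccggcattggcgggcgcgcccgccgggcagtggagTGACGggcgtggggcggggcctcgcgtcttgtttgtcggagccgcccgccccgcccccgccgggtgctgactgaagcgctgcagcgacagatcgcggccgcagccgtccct

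RefSeq gives 15 such windows for the 10 genes. The short CRE TGACG, which reads CGTCA from the other strand and was also counted inside a full CRE, was found in 6 of the 15 windows, which belong to 5 genes, *Gpr155*, *Fam214a*, *Sesn1*, *Foxo3* and *Tsc22d3*. It is common, since 20.8% of all 32851 mouse windows hold it. In *Gpr155*, *Fam214a* and the downstream window of *Sesn1* it lay before the transcript start. The FoxO site TGTTTAC, read from the other strand as GTAAACA, was found in 1 window, at the upstream start of *Sesn1* and after the transcript start, against 3.65% of all windows. The full CRE TGACGTCA, held by 1.79% of all windows, and the TFEB site TCACGTGA, held by 0.974%, were not among the letters of any of the 15 windows. These matches are letters in a window, and binding of a factor was not measured.

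*Gpr155* (ENSMUSG00000041762, chr2:73341506-73386572, minus strand) was at 6.51% of its untreated level at 4 h. Untreated BMDMs had 1179, 1438, 1247 and 1202 normalized counts in mice 1 to 4. The counts were 719, 680, 701 and 636 at 1 h, and 76.1, 84.6, 67.6 and 99.0 at 4 h. The 3 groups did not overlap, and each mouse went down at both steps. The log2 fold change was -0.89 (SE 0.09) at 1 h and -3.94 (SE 0.10) at 4 h, a 15.3-fold lower level. The 4 h values rest on 73 to 127 reads per library, so they lie well above 0. In bulk RNA, fewer cells of a type and less RNA per cell cannot be told apart.

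*Fam214a* (ENSMUSG00000034858, chr9:74952884-75032468, plus strand), also called *Atosa*, encodes a protein of little known function and had almost the same course. Its normalized counts were 1241, 1450, 1021 and 1340 without treatment, 644, 793, 645 and 773 after 1 h, and 78.2, 85.6, 76.8 and 83.4 after 4 h. Again no value of one group reached the range of another. The log2 fold change was -0.82 (SE 0.10) at 1 h and -3.96 (SE 0.12) at 4 h, when 6.44% of the untreated level was left. Its paralog *Fam214b* had a log2 fold change of 0.10 (SE 0.06) at 1 h, which did not pass the threshold (adjusted p = 0.274), and rose by 0.82 (SE 0.06) at 4 h (adjusted p = 4.31e-08).

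Although both genes were picked for a late fall, both were already lower after 1 h in all 4 mice. Between 1 h and 4 h the log2 level of *Gpr155* changed by -3.05 (SE 0.10) and that of *Fam214a* by -3.14 (SE 0.12). Spread over the 3 hours between these times, this is -1.02 per hour for *Gpr155* and -1.05 per hour for *Fam214a*, beside -0.89 and -0.82 in the first hour. The pace of both genes was therefore similar in the 2 intervals, whereas *Sesn1* changed by -1.57 in the first hour and by -0.28 per hour after it. These rates are averages over each interval from 3 times, and no difference between them was tested. In the plot of counts by mouse, *Gpr155* and *Fam214a* go down in steps, while *Sesn1* has most of its fall behind it at 1 h.

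**Figure D1:**
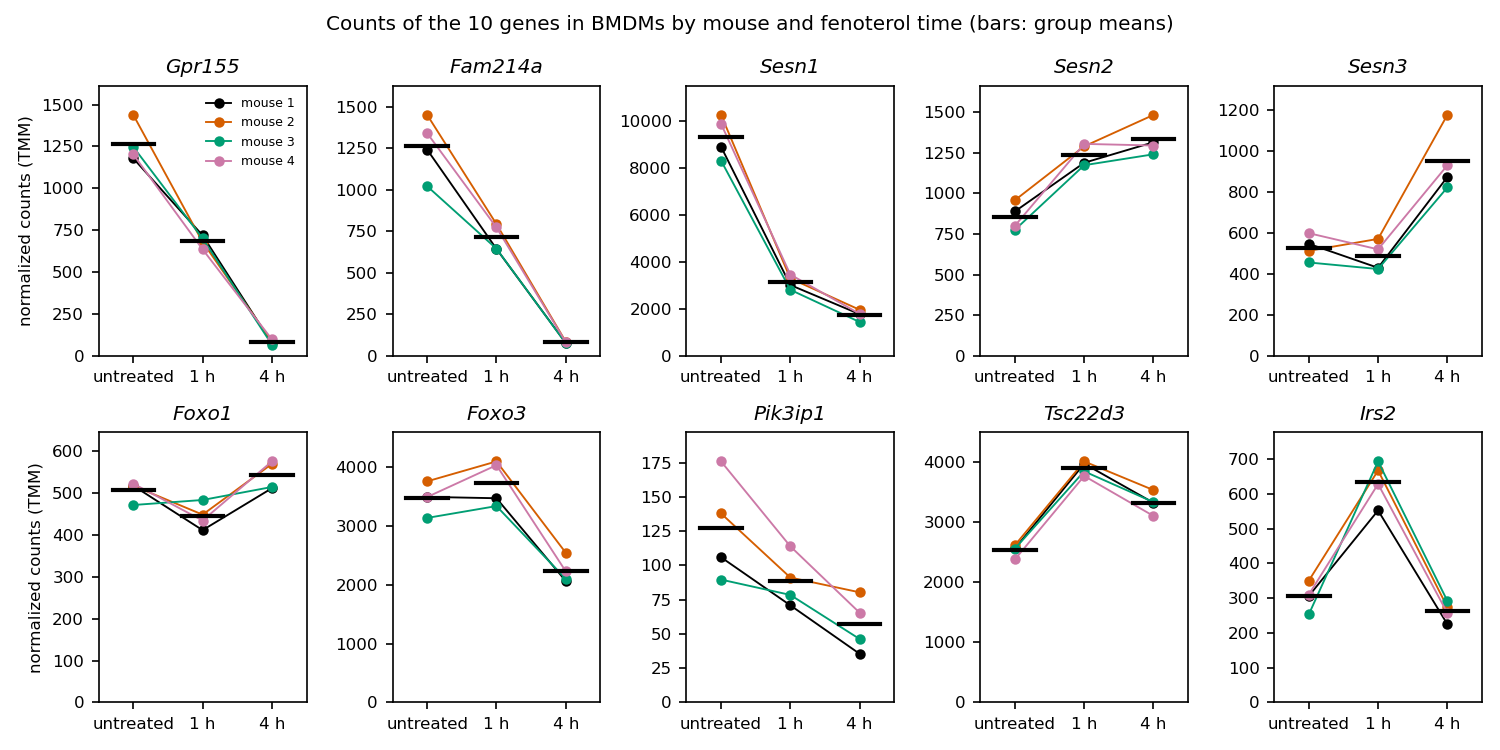
Normalized counts (vertical axis, linear and from 0, a scale for each gene) of the 10 genes in untreated BMDMs and after 1 h and 4 h of fenoterol (horizontal axis). Colored points joined by lines are the 4 mice and black bars are group means; *Gpr155* and *Fam214a* are below 100 in all 4 mice at 4 h, and *Irs2* is highest at 1 h.

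*Fam214a* and *Gpr155* were each other's nearest gene when the 10285 genes that averaged 50 or more normalized counts were ranked by likeness. The measure was the Euclidean distance between log2 CPM values, centered on the mean over the 12 libraries, and it was 0.608 for this pair. The next gene was the same for both, *Hpgd*, which encodes an enzyme that inactivates prostaglandins, at a distance of 0.726 from *Gpr155* and 0.677 from *Fam214a*. At 1 h *Hpgd* changed by -0.78 on the log2 scale, and at 4 h by -3.60. *Ldlrad3* and *Chst7*, a sulfotransferase gene, were also among the nearest 5 of both. Their distances were 1.42 and 1.5 from *Gpr155*, and 1.37 and 1.20 from *Fam214a*. The fifth place was held by *Fcrl1* for *Gpr155* (1.69) and by *Samd4* for *Fam214a* (1.68). These followed less closely at 1 h, with log2 fold changes of -0.30 for *Ldlrad3*, -0.59 for *Chst7*, -0.22 for *Fcrl1* and -0.23 for *Samd4*, against -3.33, -3.50, -2.85 and -3.27 at 4 h. At 4 h *Chst7* had only 16 to 21 reads per library and *Samd4* 15 to 48, against 110 to 178 for *Hpgd*, so their values are less precise. The ranking is a description over 12 libraries that share their mice and their 3 groups. *Gpr155* and *Fam214a* were both chosen for a late fall in these same libraries, so their closeness follows in part from that choice.

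**Figure D2:**
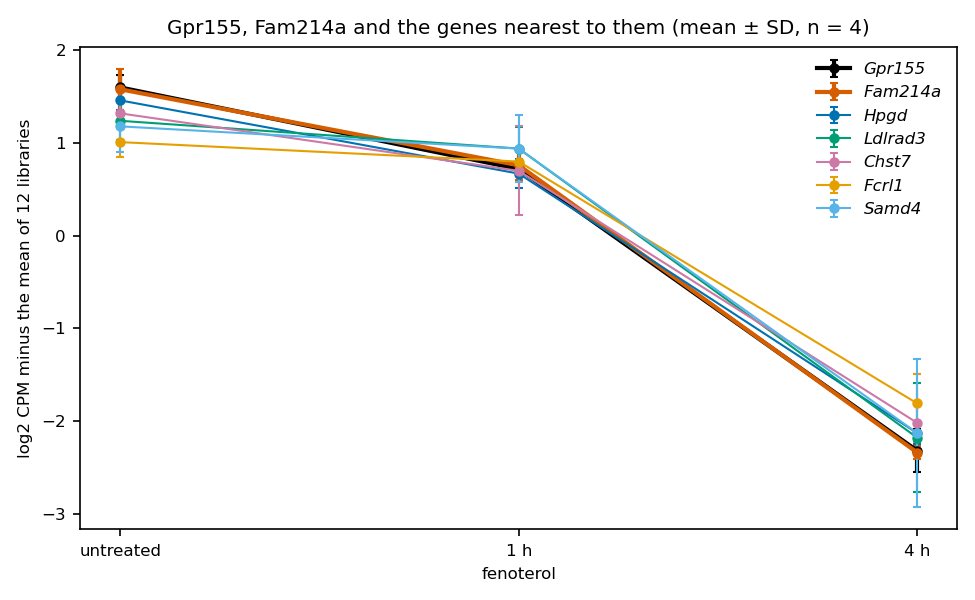
Centered log2 CPM (vertical axis) of *Gpr155*, *Fam214a* and the 5 other genes nearest to one or both, by group (horizontal axis); points are means and bars are SD over 4 mice. The curves of *Gpr155*, *Fam214a* and *Hpgd* lie close together at all 3 groups, while *Fcrl1* and *Samd4* are nearer to their untreated level at 1 h.

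Of the 8 genes that were tested, 4 passed the threshold at 1 h, with *Sesn2*, *Tsc22d3* and *Irs2* higher and *Sesn1* lower. In the same contrast 20.1% of all genes tested were called, 10.0% higher and 10.1% lower. At 4 h 6 of the 8 passed, with *Sesn2*, *Sesn3* and *Tsc22d3* higher and *Sesn1*, *Foxo3* and *Pik3ip1* lower, where 40.0% of all genes were called, 19.7% higher and 20.4% lower. Between 1 h and 4 h 6 passed as well, *Sesn3* and *Foxo1* higher and *Sesn1*, *Foxo3*, *Tsc22d3* and *Irs2* lower, where 38.5% of all genes were called, 18.7% higher and 19.8% lower. The genes called in each contrast were also those whose groups did not overlap. This is no further support, as both come from the same values, and the share of all genes with such groups was not counted. The median log2 fold change of the 8 was -0.0086 at 1 h and -0.057 at 4 h, beside -0.0049 and 0.0042 over all genes, and -0.43 between 1 h and 4 h beside 0.0074. As the genes were chosen with these data known, their counts are no independent support for a direction. The contrasts at 1 h and 4 h share the untreated libraries.

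**Figure D3:**
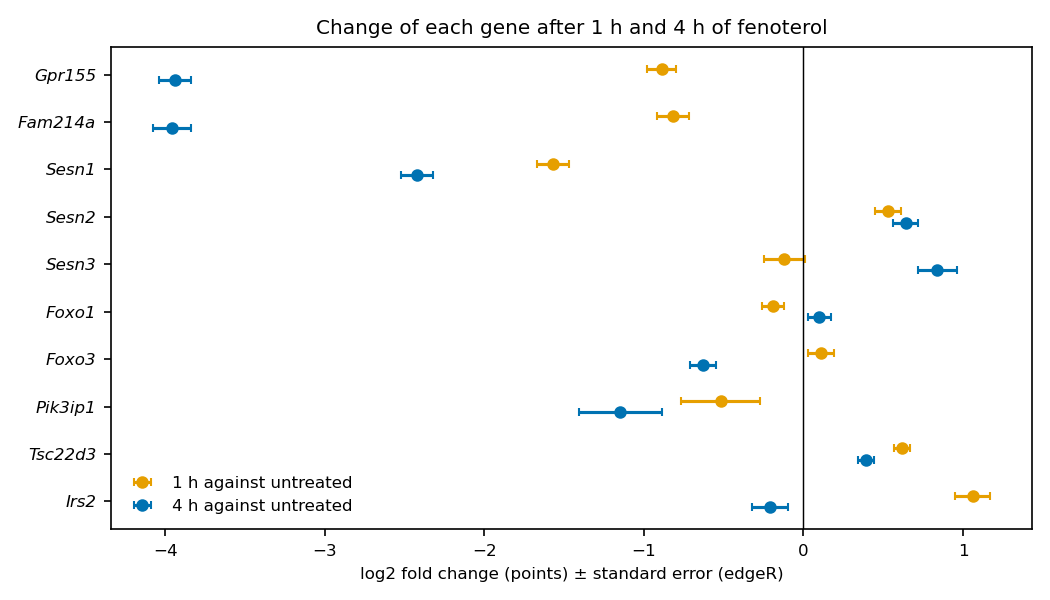
Log2 fold change against untreated BMDMs (horizontal axis) of the 10 genes (vertical axis) after 1 h (orange) and 4 h (blue) of fenoterol; points are edgeR estimates and bars are standard errors. *Gpr155* and *Fam214a* lie near -4 at 4 h, *Sesn1* is lower at both times, *Sesn2* and *Tsc22d3* are higher at both, and *Irs2* is higher at 1 h.

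The 3 sestrins went different ways. *Sesn1* (ENSMUSG00000038332, chr10:41809935-41908424, plus strand), a known target of p53 and FoxO factors, had 8888, 10241, 8299 and 9861 normalized counts in untreated BMDMs. It had 3012, 3293, 2810 and 3458 at 1 h, and 1774, 1961, 1441 and 1787 at 4 h. All 3 groups were apart. *Sesn1* fell by 1.57 on the log2 scale (SE 0.10, adjusted p = 1.48e-08) at 1 h and by 2.42 (SE 0.10, adjusted p = 1.76e-10) at 4 h, in all 4 mice. It also fell by 0.85 from 1 h to 4 h (adjusted p = 7.61e-06).

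*Sesn2* (ENSMUSG00000028893, chr4:132492032-132510501, minus strand), a leucine-binding sestrin whose gene is a known target of ATF4 and p53, rose. Its normalized counts were 888, 957, 775 and 800 without treatment, 1187, 1288, 1172 and 1303 after 1 h, and 1313, 1481, 1239 and 1293 after 4 h. Every treated library lay above every untreated one, and the ranges of 1 h and 4 h overlapped. *Sesn2* rose by 0.53 (SE 0.08, adjusted p = 0.000107) at 1 h and by 0.64 (SE 0.08, adjusted p = 7.95e-06) at 4 h. The difference between the times, 0.11 (95% interval -0.05 to 0.26), did not pass the threshold (adjusted p = 0.293), but did when libraries were scaled by their totals only (0.197, adjusted p = 0.0369).

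*Sesn3* (ENSMUSG00000032009, chr9:14275067-14333101, plus strand), a known FoxO target, rose at 4 h. It had 547, 513, 456 and 599 normalized counts without treatment, 430, 571, 424 and 520 after 1 h, and 873, 1176, 822 and 930 after 4 h. The untreated and 1 h ranges overlapped, and all 4 h values lay above both. The log2 fold change at 1 h was -0.12 (SE 0.13, adjusted p = 0.576, 95% interval -0.39 to 0.15). *Sesn3* rose by 0.84 (SE 0.12, adjusted p = 6.67e-05) at 4 h against untreated and by 0.97 (SE 0.12, adjusted p = 2.62e-05) against 1 h, in all 4 mice.

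Levels of different genes were compared per length, as FPKM over the exon bases of all transcripts of a gene. On this scale the summed level of the 3 sestrins was 134 ± 12.3 FPKM (SD, n = 4) without treatment, 60.0 ± 4.86 after 1 h and 45.0 ± 4.65 after 4 h. *Sesn1* made up 89.3% of the untreated sum, 67.0% after 1 h and 49.5% after 4 h. The share of *Sesn2* was 9.40%, 30.3% and 43.5%, and that of *Sesn3* was 1.32%, 2.70% and 7.03%. In untreated BMDMs the sestrin RNA was thus mostly *Sesn1*, and at 4 h the FPKM ranges of *Sesn1* (18.4 to 25.1) and *Sesn2* (18.2 to 21.7) overlapped. The *Sesn3* model has 15269 exon bases, so its FPKM is an underestimate if BMDMs use a shorter transcript.

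**Figure D4:**
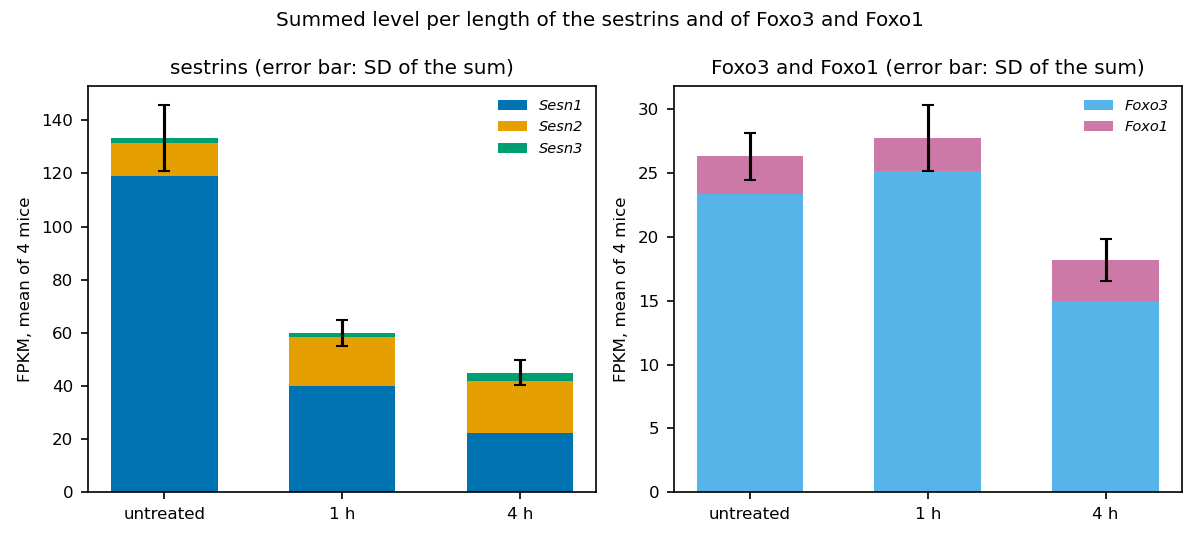
Mean FPKM of 4 mice (vertical axis, linear and from 0) of the sestrins (left) and of *Foxo3* and *Foxo1* (right) in untreated BMDMs and after 1 h and 4 h of fenoterol (horizontal axis), stacked by gene, with the SD of the sum as error bar. The sestrin sum goes from 134 to 60.0 and 45.0 FPKM as the *Sesn1* part shrinks, and *Foxo3* makes up most of the sum of *Foxo3* and *Foxo1* in all groups; *Foxo4* is not in this sum.

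Of the 2 FoxO factors among the 10 genes, *Foxo3* (ENSMUSG00000048756, chr10:42181841-42276755, minus strand) fell at 4 h. It had 3489, 3753, 3132 and 3487 normalized counts without treatment, 3466, 4091, 3333 and 4027 after 1 h, and 2061, 2541, 2098 and 2226 after 4 h. The untreated and 1 h ranges overlapped, and the 4 h values lay below both. The log2 fold change at 1 h was 0.11 (SE 0.08, adjusted p = 0.448, 95% interval -0.07 to 0.29). *Foxo3* fell by 0.63 (SE 0.08, adjusted p = 2.82e-05) at 4 h against untreated and by 0.74 (SE 0.08, adjusted p = 8.8e-06) against 1 h, in all 4 mice.

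*Foxo1* (ENSMUSG00000044167, chr3:52268336-52353221, plus strand) moved little. Its normalized counts were 517, 517, 471 and 522 without treatment, 411, 448, 483 and 434 after 1 h, and 511, 569, 514 and 575 after 4 h. The 1 h and 4 h groups were apart, and both overlapped the untreated range. *Foxo1* was 0.29 higher at 4 h than at 1 h (SE 0.07, adjusted p = 0.00442). Against untreated, the log2 fold change was -0.19 (SE 0.07, adjusted p = 0.0741) at 1 h and 0.10 (SE 0.07, adjusted p = 0.288) at 4 h, each with 3 of 4 mice in that direction. The 1 h difference passed the threshold without 1 h replicate 3 (-0.227, adjusted p = 0.0492) and with scaling by library totals only (-0.259, adjusted p = 0.0189).

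The summed FPKM of *Foxo1* and *Foxo3* was 26.3 ± 1.84 (SD, n = 4) without treatment, 27.7 ± 2.56 after 1 h and 18.2 ± 1.63 after 4 h. *Foxo3* made up 88.7%, 90.5% and 82.4% of it. A FoxO factor that is not among the 10 genes, *Foxo4*, fell by 0.29 at 1 h (SE 0.06, adjusted p = 0.00469) and by 0.33 at 4 h (SE 0.06, adjusted p = 0.000837), and is not in this sum. *Foxo1* shares 6.80% of its exonic 50-base words with transcripts of other genes, read on either strand. These words can include those of an opposite-strand transcript at the same place, which covers 7.78% of its exon bases. How many lie elsewhere was not counted. If some do, a small part of its reads could have been counted there or left out.

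*Pik3ip1* (ENSMUSG00000034614, chr11:3330401-3342971, plus strand) encodes a transmembrane inhibitor of PI3K and was the lowest of the 10 genes per length in untreated BMDMs, where its FPKM range overlapped that of *Sesn3*. Its normalized counts were 106, 138, 89.7 and 176 without treatment, 70.9, 91.2, 78.5 and 114 after 1 h, and 35.5, 80.4, 46.3 and 65.5 after 4 h. The 4 h values were below all untreated ones, and the 1 h range overlapped both. *Pik3ip1* fell by 1.15 (SE 0.26, adjusted p = 0.00255) at 4 h. The log2 fold change of -0.52 at 1 h (SE 0.25, adjusted p = 0.19) did not pass the threshold, nor did that of -0.63 between 1 h and 4 h (SE 0.26, adjusted p = 0.0733), although all 4 mice went down in both.

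Mice differed in their *Pik3ip1* level, with replicates 2 and 4 highest in all 3 groups. With the mouse as a block, so that each culture is compared with that of the same mouse, *Pik3ip1* passed the threshold at 1 h (-0.51, adjusted p = 0.0163) and between 1 h and 4 h (-0.66, adjusted p = 0.00283). It also passed between 1 h and 4 h with DESeq2 (-0.64, adjusted p = 0.0454) and without 4 h replicate 2 (-0.835, adjusted p = 0.0293). Leaving out a library also gave smaller values, down to -0.314 at 1 h without untreated replicate 4 (adjusted p = 0.474) and to -0.47 between 1 h and 4 h without 4 h replicate 1, with adjusted p up to 0.198 in that contrast. The values rest on 34 to 163 reads per library, the fewest among the 8 tested genes.

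*Irs2* (ENSMUSG00000038894, chr8:10984681-11008458, minus strand), the adaptor that carries the insulin signal to PI3K, rose and returned. It had 306, 350, 253 and 310 normalized counts without treatment, 552, 667, 693 and 628 after 1 h, and 225, 274, 292 and 257 after 4 h. The 1 h values lay above all others, and the untreated and 4 h ranges overlapped. *Irs2* rose by 1.06 (SE 0.11, adjusted p = 3.9e-06) at 1 h and then fell by 1.28 (SE 0.11, adjusted p = 4.24e-07) from 1 h to 4 h, with -1.24 to -1.29 in the single mice. Against untreated, the 4 h level differed by -0.21 (SE 0.11, 95% interval -0.45 to 0.02, adjusted p = 0.147). That difference passed the threshold without untreated replicate 3, the lowest untreated value (-0.304, adjusted p = 0.0371).

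*Tsc22d3* (ENSMUSG00000031431, chrX:140539528-140600659, minus strand), which encodes GILZ, rose at both times. Its normalized counts were 2556, 2610, 2554 and 2375 without treatment, 3964, 4002, 3837 and 3760 after 1 h, and 3315, 3526, 3326 and 3096 after 4 h. The groups did not overlap. *Tsc22d3* rose by 0.62 (SE 0.05, adjusted p = 3.85e-07) at 1 h and by 0.39 (SE 0.05, adjusted p = 2.16e-05) at 4 h, and was 0.23 lower at 4 h than at 1 h on the log2 scale (adjusted p = 0.00236). Its replicates were the closest of the 10 genes at 1 h, at 3891 ± 112 normalized counts (SD, n = 4).

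Ordered by FPKM, *Sesn1* led in untreated BMDMs at 119, followed by *Tsc22d3* at 29.6, *Foxo3* at 23.3 and *Sesn2* at 12.5. *Fam214a* at 9.70 and *Gpr155* at 9.67 overlapped, as did *Foxo1* at 2.98 and *Irs2* at 2.46, and *Sesn3* at 1.77 and *Pik3ip1* at 1.52. After 1 h *Tsc22d3* at 45.7 and *Sesn1* at 40.2 overlapped at the top. They were followed by *Foxo3* at 25.1 and *Sesn2* at 18.2, and then by *Fam214a* at 5.48, *Gpr155* at 5.22 and *Irs2* at 5.12, each of which overlapped its neighbor. The last 3 were *Foxo1* at 2.61, *Sesn3* at 1.62 and *Pik3ip1* at 1.06, which were apart. After 4 h *Tsc22d3* led alone at 38.9, with *Sesn1* at 22.3 and *Sesn2* at 19.5 next and overlapping. *Foxo3* stood at 15.0, and *Foxo1* at 3.19 overlapped *Sesn3* at 3.17. *Irs2* stood at 2.11, and the order ended with *Pik3ip1* at 0.679, *Gpr155* at 0.625 and *Fam214a* at 0.622, with overlapping neighbors. *Gpr155* and *Fam214a* thus went from the middle of the order to its end, and were next to each other in all 3 groups.

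Of the 10 genes, 4 overlap transcripts on the opposite strand, over 7.78% of exon bases in *Foxo1*, 4.28% in *Gpr155*, 2.56% in *Irs2* and 2.13% in *Pik3ip1*. Each of these transcripts had at most 7 reads in all 12 libraries together, against at least 1067 for the member it overlaps. The strand setting of the counting is not stated.

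The other genes of the pathways were read from 7 lists, beside the share of all genes called (20.1% at 1 h and 40.0% at 4 h). The largest rise and fall given for a list are those among its genes past the threshold with 50 or more normalized counts on average. At the lysosome, where GPR155 acts, all 30 genes of the Rag GTPases, GATOR complexes and their partners were tested. At 1 h 1 rose and 8 fell (30.0% called), and at 4 h 4 rose and 11 fell (15 of the 30). Leaving out a library gave 6 to 10 called at 1 h, 1 of them higher each time, where 16.7% to 19.8% of all genes were called. At 4 h the split was 9 higher and 11 lower with the mouse as a block, where 47.4% of all genes were called. It was 7 higher and 10 lower with scaling by library totals only, where 40.4% of all genes were called and 53.4% of those were higher. The list median was -0.01 at 1 h and -0.02 at 4 h. *Castor1*, an arginine sensor that binds GATOR2 as sestrins do, had the largest rise at both times, by 1.96 (SE 0.15, adjusted p = 1.68e-07) and 1.53 (SE 0.15, adjusted p = 1.23e-06). The largest falls were those of *Bmt2*, which encodes the methionine-pathway sensor SAMTOR, at 1 h (-1.19, adjusted p = 2.76e-07) and of the lysosomal transcription factor *Mitf* at 4 h (-1.81, adjusted p = 8.79e-11). Of mTOR complex and TSC-RHEB genes, 19 of 20 were tested (not *Ddit4l*), with 2 higher and 2 lower at 1 h (21.1%) and 7 higher and 4 lower at 4 h (57.9%). The list medians were 0.00 and 0.07. *Ddit4*, which encodes the mTORC1 inhibitor REDD1, rose by 2.12 at 1 h (adjusted p = 1.46e-05) and at 4 h (adjusted p = 6.51e-06). *Mlst8*, a subunit of both mTOR complexes, fell by 0.38 at 1 h (adjusted p = 0.00265) but was 0.41 above untreated at 4 h (adjusted p = 0.000598). *Prr5l*, an mTORC2 partner, fell by 2.93 at 4 h (adjusted p = 1.88e-06).

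Around *Irs2* and *Pik3ip1*, 26 of 28 PI3K-AKT genes were tested (not *Irs1* and *Trib2*). At 1 h 3 rose and 5 fell (30.8%, median 0.02), and at 4 h 5 rose and 13 fell (69.2%, median -0.24). With library totals only the 1 h split was 3 higher and 8 lower (all genes: 23.6% called, 32.5% of them higher). *Trib1*, a pseudokinase gene, had the largest called rise at both times, by 2.86 (adjusted p = 6.74e-10) and 1.80 (adjusted p = 5.82e-08). *Inppl1*, which encodes the lipid phosphatase SHIP2, had the largest called fall at both times, by 0.54 (adjusted p = 0.0032) and 1.06 (adjusted p = 3.08e-06). Of other FoxO factors and known FoxO targets, 21 of 24 were tested (not *Foxo6*, *Trim63* and *Pdk4*), with 6 higher and 4 lower at 1 h (47.6%, median 0.08) and 5 higher and 9 lower at 4 h (66.7%, median -0.11). *Cdkn1a*, a cell cycle inhibitor gene, rose by 2.11 at 1 h (adjusted p = 8.41e-11) and 1.07 at 4 h (adjusted p = 6.6e-08), whereas *Gadd45a*, a stress response gene, fell by 2.28 (adjusted p = 1.51e-09) and 1.06 (adjusted p = 1.68e-06).

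**Figure D5:**
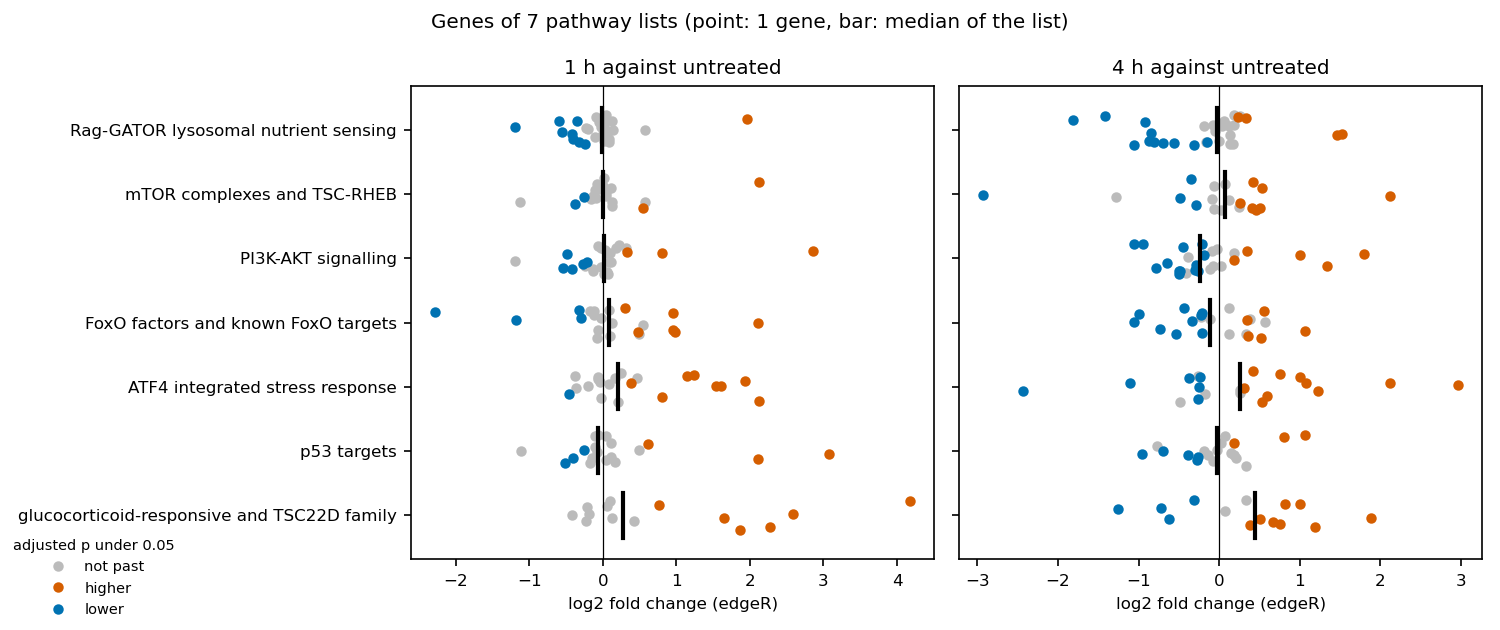
Log2 fold change (horizontal axis) of each tested gene (point) in 7 pathway lists (vertical axis) at 1 h (left) and 4 h (right) against untreated BMDMs; color marks genes past the threshold, and black bars are list medians. The PI3K-AKT median is -0.24 at 4 h, and the glucocorticoid-responsive median is 0.28 at 1 h and 0.45 at 4 h.

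Sestrin genes are known targets of the ATF4 and p53 programs. Of *Atf4* and its other targets and partners in the integrated stress response, 21 of 24 were tested (not *Chac1*, *Stc2* and *Cth*), with 8 higher and 1 lower at 1 h (42.9%, median 0.20) and 10 higher and 6 lower at 4 h (76.2%, median 0.26). With library totals only the split at 1 h was 7 higher and 2 lower, beside the same 23.6% and 32.5% over all genes. Without 4 h replicate 2, 12 genes of this list passed at 4 h, 9 of them higher, where 36.6% of all genes were called. *Sesn2* rose beside *Ddit4* and the cystine transporter gene *Slc7a11*, which rose by 2.97 at 4 h (adjusted p = 4.83e-06), while *Ndrg1* fell by 2.44 at 4 h (adjusted p = 1.69e-10). *Nupr1* fell by 0.46 at 1 h (adjusted p = 0.015), a call that was lost without untreated replicate 2 (-0.413, adjusted p = 0.0505). Of the p53 gene *Trp53* and its other targets, 19 of 20 were tested (not *Perp*), with 3 higher and 3 lower at 1 h (31.6%, median -0.06) and 3 higher and 5 lower at 4 h (42.1%, median -0.03). *Btg2*, an antiproliferative gene, rose by 3.08 at 1 h (adjusted p = 2.09e-11), and *Bbc3*, which encodes the death protein PUMA, fell by 0.52 at 1 h (adjusted p = 0.0126) and 0.96 at 4 h (adjusted p = 5.01e-05). The 4 h count of 8 went down to 4 without untreated replicate 1, and to 5 without untreated replicate 2, 4 h replicate 3 or 4 h replicate 4, and up to 12 with the mouse as a block, where 47.4% of all genes were called. Between 1 h and 4 h, 7 genes of this list passed (36.8%, beside 38.5% of all genes), but 4 without 1 h replicate 4 or 4 h replicate 2. With the mouse as a block 11 passed, where 46.6% of all genes were called.

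For *Tsc22d3*, a list of glucocorticoid-responsive genes, the TSC22D family and *Fam214b* had all 14 tested, with 6 higher and 0 lower at 1 h (42.9%, median 0.28) and 8 higher, *Fam214b* among them, and 4 lower at 4 h (85.7%, median 0.45). With the mouse as a block 10 of the 14 passed at 1 h, 7 of them higher and the rest lower. In that fit 27.0% of all genes were called, against 20.1% without the block. With library totals only 6 were higher and 3 lower at that time, beside 23.6% of all genes called and 32.5% of those higher. *Dusp1* is a MAPK phosphatase gene that the study names as a CREB target. It rose by 4.18 at 1 h (adjusted p = 2.06e-12) and 1.89 at 4 h (adjusted p = 3.32e-09). *Zbtb16* fell by 1.26 at 4 h (adjusted p = 0.000236). The lists were also chosen with earlier results known, and some genes stand in more than 1 of them.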

How the data were processed

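The data are counts of 12 RNA-seq libraries from BMDMs. Per the labels and the methods of the study, the authors prepared poly(A) libraries with a stranded kit, sequenced single ends of 50 bases, mapped them to GRCm38 with TopHat2 2.0.11 and counted reads per gene with HTSeq 0.8.0. The deposited counts are whole numbers and not normalized. The strand option and annotation release are not given in the sources used here. Symbols, coordinates and exon lengths came from GENCODE M21. Of the 53379 genes, 53274 matched, and the rest held 0.00461% of counts. Reads that fit more than 1 place may be missing for genes with near copies.

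From these counts, edgeR 4.0.16 (R 4.3.3) gave the fold changes, with filterByExpr, TMM scaling (factors 0.953 to 1.04) and the quasi-likelihood test in 1 fit of 12 libraries with a mean per group. P-values were adjusted by Benjamini-Hochberg over all genes of a contrast, and 95% intervals use the t distribution with the degrees of freedom of that fit. The study used another model on normalized values, and a count model was used here because the table holds counts. FPKM used TMM-scaled library sizes. The chi-square value between replicates was 9.63 to 20 times its degrees of freedom, so their spread exceeded counting error. The shares of mouse, culture and library preparation in it were not separated. The code was tested on simulated counts.

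The members, the 7 lists of 153 genes and the rule for named genes were chosen with earlier results of these data known. The rule took the members, for each list and contrast up to 3 rises and 3 falls with an adjusted p under 0.05 and 50 or more normalized counts on average, and the 5 genes nearest to *Gpr155* and *Fam214a*. The text gives the largest rise and fall per list at 1 h and 4 h. *Fam214b* is named as a paralog, *Foxo4* was chosen after its values were seen, and list genes that were not tested are named as such.

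Alternatives were RLE scaling, library totals only, DESeq2 1.42.0, no filter, a mean count of at least 50, the mouse as a block, only the 2 groups compared, and leaving out each library. Same-numbered libraries come from the same mouse per the labels. Their deviations from the group means had r from 0.29 to 0.561 (median 0.389, 12 pairs), against -0.304 to 0.0912 for different mice (median -0.127, 36 pairs).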

Additional observations from a re-analysis of the deposited data

Results flagged for a closer look

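*Foxo1* in untreated replicate 3 had the lowest normalized count of its group, 471, against 517 to 522 in the other 3. Its distance from the nearest of them was 0.896 of the range of the group, above Dixon's critical value (95%) for 4 samples. Of the 30 groups examined in this way, chance gives about 1 in 20, or 1.5.

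The effects at 1 h and 4 h were compared for 25 genes by edgeR's contrast of 4 h and 1 h, which is the difference between them, as both use the untreated libraries. Among the members, the log2 effect at 4 h minus that at 1 h was -0.85 for *Sesn1*, 0.97 for *Sesn3*, 0.29 for *Foxo1*, -0.74 for *Foxo3*, -0.23 for *Tsc22d3* and -1.28 for *Irs2*. For *Sesn2* and *Pik3ip1* the difference did not pass the threshold.

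Among lysosomal and mTOR genes, the same difference passed the threshold at -0.43 for *Castor1*, 0.39 for *Bmt2*, -1.76 for *Mitf*, 0.79 for *Mlst8* and -3.50 for *Prr5l*. In PI3K-AKT and FoxO genes it was -1.06 for *Trib1*, -0.53 for *Inppl1*, -1.04 for *Cdkn1a* and 1.22 for *Gadd45a*. In stress programs it was 1.03 for *Slc7a11*, -2.52 for *Ndrg1*, -2.26 for *Btg2* and -0.44 for *Bbc3*. In glucocorticoid-responsive genes it was -2.29 for *Dusp1* and -1.32 for *Zbtb16*. For *Ddit4* (adjusted p = 1.0) and *Nupr1* (0.09, adjusted p = 0.613) it did not pass.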

How the results depend on the processing

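No fold change of a member turned its direction under the 19 alternatives (7 other fits and 12 that leave out a library). Of the fits of the 8 tested members, 448 kept their side of the threshold and 8, given beside the results, passed only under the alternative. The count of members past the threshold was 4 or 5 at 1 h, 6 or 7 at 4 h and 6 or 7 between the times under every alternative. With the block, 10 genes of the glucocorticoid list passed at 1 h (6 without it), 11 p53 list genes between 1 h and 4 h (7 without it) and 12 at 4 h (8 without it), as calls over all genes went from 20.1% to 27.0%, from 38.5% to 46.6% and from 40.0% to 47.4%, while the member calls it changed were those of *Pik3ip1*. Leaving out a library gave 4 to 9 p53 list genes at 4 h and 4 to 7 between 1 h and 4 h. With library totals only, *Fam214a* changed by -3.04 between 1 h and 4 h, *Tsc22d3* averaged 3744 normalized counts at 1 h, and the share of called genes that were higher went from 49.8% to 32.5% at 1 h and from 48.6% to 65.7% between 1 h and 4 h, as the median of all genes moved to -0.0733 and 0.1. For the genes with the largest rise or fall of a list in a contrast, 719 fits kept their side and 22 lost the call with the same direction. Of these 22, 13 were of *Trp53inp1* and 8 of *Pik3r2* between 1 h and 4 h, and 1 of *Nupr1* at 1 h. The other genes that the rule takes were not followed through the alternatives. Levels between genes depend on the exon model, and *Pik3ip1*, with 34 to 163 reads, is the least precise. The causes of these changes were not tested.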
